A study of Mus musculus with 4 samples.

Results

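Platelet-derived growth factors (PDGFs) and their receptors were described across 4 Affymetrix expression arrays of mouse primary intestinal epithelial cells. The family was taken as 6 genes, the receptor genes Pdgfra and Pdgfrb and the ligand genes Pdgfa, Pdgfb, Pdgfc and Pdgfd, with every probe set whose annotation gives 1 of these symbols and no other. That rule found 14 probe sets among the 34945 with 1 gene symbol, and 6 genes among 18193. Of these 14, 13 had a signal over the floor on at least 1 array, as did 21676 probe sets in all, which are called measured. The floor is the median signal of all probe sets other than controls on the 4 arrays (signal 89.8, log2 6.49), and lower signals were raised to it before a ratio was taken.

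Crypts isolated from mouse intestine had been plated on fibronectin, and the cultures received IL-17A (interleukin-17A) at 50 ng/ml, FGF2 (fibroblast growth factor 2) at 5 ng/ml or both factors at these doses over 6 h, or were left untreated. IL-17A is made by T helper and innate-like lymphocytes and acts on epithelium and stroma, and FGF2 is a mitogen of mesenchymal and endothelial cells. All 4 groups shared the plating and the serum-containing medium. No genetic change was labelled. The strain, the age, the number of animals and the culture time of the untreated cells were not given in the sources used here. Each group is 1 array, so no value has an error and no test could be made. A difference below is between 2 arrays and has no replicate check.

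PDGFs are secreted dimers that bind receptor tyrosine kinases. The α receptor binds A, B and C chains, and the β receptor binds mainly B and D chains. In the developing intestine, epithelium supplies PDGF-A to the mesenchyme beneath it, where fibroblasts carry the α receptor, while endothelium supplies PDGF-B to pericytes, which carry the β receptor. The C and D chains are secreted in a latent form and are active only after a protease removes their CUB domain. Fibroblasts and pericytes are therefore the cells in which receptor transcripts are usually seen, and the labels call these cultures epithelial.

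The markers of other cell types were read beside the family for that reason. The epithelial list (Epcam, Cdh1, Krt8, Krt18 and others) was measured for 10 of 10 genes, with summed signals of 140883 in IL-17A, 143881 in FGF2, 145223 in combined and 137137 in untreated cells. Markers of other cells were measured as well. The fibroblast list (Dcn, Lum, Col1a1, Col1a2 and others) was measured for 12 of 12 genes, the pericyte list (Rgs5, Cspg4, Abcc9, Kcnj8 and others) for 8 of 9, the smooth muscle list (Acta2, Myh11, Tagln, Cnn1 and others) for 7 of 7 and the endothelial list (Pecam1, Cdh5, Kdr, Emcn and others) for 10 of 10. The Foxl1 probe set, which marks the subepithelial fibroblasts with the highest PDGFRA, was under the floor on all 4 arrays, with signals of 11.8, 8.67, 6.87 and 4.59 in IL-17A, FGF2, combined and untreated cells. Dcn, Acta2 and Cdh5 were over the floor on all 4 arrays, so mesenchymal and endothelial transcripts were measured in every group. In such mixed RNA, fewer cells of a type and less RNA per cell cannot be told apart.

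In the annotation of GRCm38.p6, Pdgfra lies at chr5:75151322-75198206, Pdgfa at chr5:138976014-139000792, Pdgfc at chr3:81036416-81214040, Pdgfd at chr9:6168363-6534284, Pdgfb at chr15:79995865-80024614 and Pdgfrb at chr18:61045127-61085067. Where within these genes each probe set lies was not analysed here. Signals of different probe sets are not set against each other, because each probe set has its own brightness.

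Pdgfra, the gene of the α receptor, was lower in FGF2 and in combined cells than in untreated cells on each of its 3 probe sets, and lowest in combined cells on all 3. Probe set 1421917_at had a signal of 4172 in IL-17A, 2340 in FGF2, 1984 in combined and 4992 in untreated cells. The untreated and IL-17A arrays were the high pair and both arrays with FGF2 were the low pair. FGF2 against untreated cells gave a log2 ratio of -1.09 (2.13-fold lower), and 0.641% of all measured probe sets had a ratio this low or lower. The combined treatment against untreated cells gave -1.33 (2.52-fold lower, with 0.567% of measured probe sets at or below it), and against IL-17A alone it gave -1.07 (2.10-fold lower), which became -0.95, under 2-fold, with the arrays shifted to a common median. IL-17A alone left this probe set 1.20-fold lower than in untreated cells.

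The dimmer Pdgfra probe sets had smaller ratios with FGF2 alone. Probe set 1421916_at had a signal of 421 in IL-17A, 362 in FGF2, 231 in combined and 539 in untreated cells. It was 1.49-fold lower in FGF2 and 2.33-fold lower in combined cells than in untreated cells. Probe set 1438946_at had a signal of 406.0 in IL-17A, 317 in FGF2, 215 in combined and 373 in untreated cells, so it was 1.17-fold lower in FGF2 and 1.74-fold lower in combined cells. The 3 probe sets shared the sign of the FGF2 ratio but ranged from -1.09 to -0.23 in log2, and only 1 of them passed 2-fold. Adding FGF2 to IL-17A, read as combined against IL-17A alone, gave a narrower range, from -1.07 to -0.87. For IL-17A alone they did not share a sign, with log2 ratios of -0.26, -0.35 and 0.12.

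Pdgfrb, the gene of the β receptor, stayed within 1.19-fold across the 4 arrays on both of its probe sets. Probe set 1436970_a_at had a signal of 5141 in IL-17A, 6049 in FGF2, 6076 in combined and 5553 in untreated cells. Probe set 1417148_at had 863 in IL-17A, 1026 in FGF2, 887 in combined and 980 in untreated cells. In each case the FGF2 array was above the untreated array and the IL-17A array below it, by log2 ratios between -0.18 and 0.12. The probe sets disagreed on the sign for combined against untreated cells, with 0.13 and -0.14, and the second turned to 0.01 when the arrays were shifted to a common median. Over 4 arrays the receptors thus differed in their ratios, and with 1 array a group that difference between them was not tested.

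**Figure D1:**
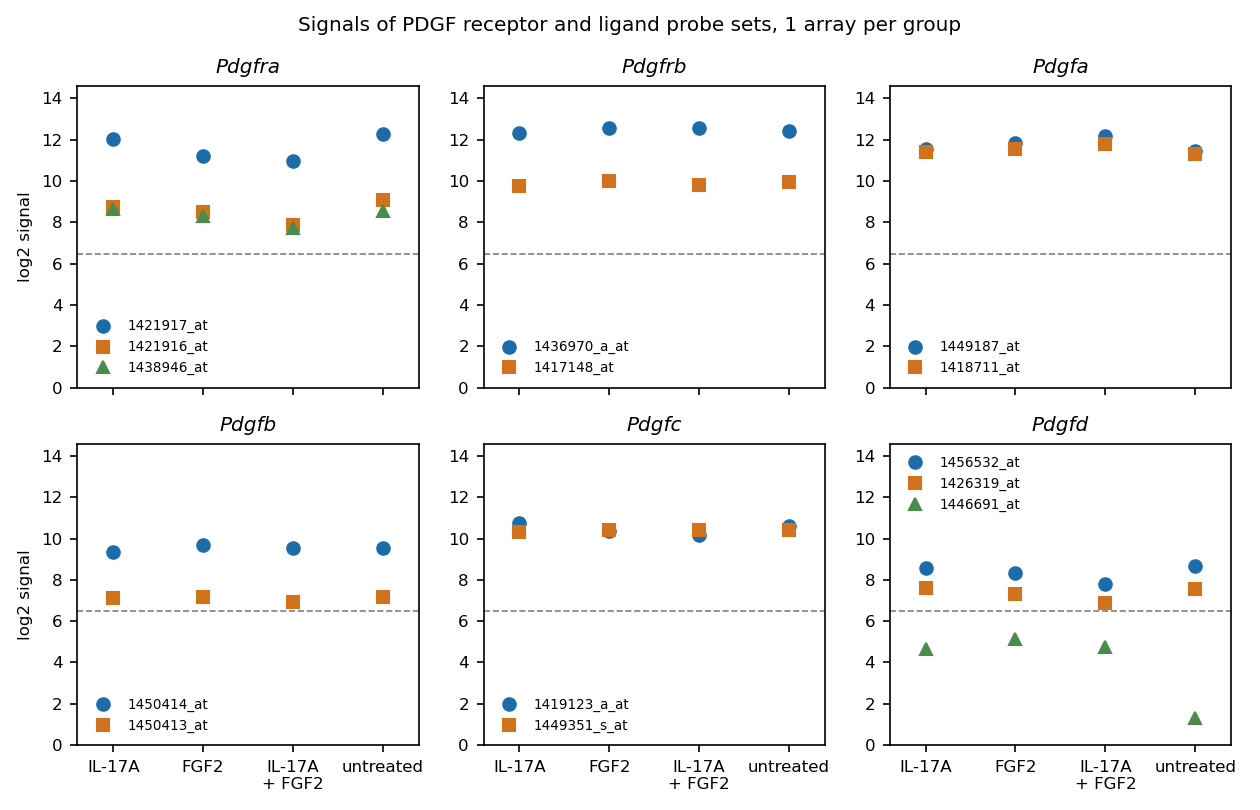
Log2 signal (vertical axis) of each probe set of the 6 genes on the IL-17A, FGF2, combined and untreated arrays (horizontal axis), 1 point per array with no error bars because each group is 1 array, and the dashed line at the floor of 6.49. The 3 Pdgfra probe sets are lowest on the combined array and both Pdgfa probe sets are highest there. The points of both Pdgfrb probe sets are nearly level.

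Pdgfa, which encodes the A chain, a ligand of the α receptor, was higher in IL-17A, FGF2 and combined cells than in untreated cells on both of its probe sets. Probe set 1449187_at had a signal of 2992 in IL-17A, 3655 in FGF2, 4574 in combined and 2773 in untreated cells. The other probe set, 1418711_at, had 2708 in IL-17A, 3045 in FGF2, 3562 in combined and 2550.2 in untreated cells. Both had the same order, with combined cells highest, then FGF2, then IL-17A, then untreated cells. The IL-17A step was small, at 1.08 and 1.06-fold, and 26.7% and 30.6% of measured probe sets had a ratio as high or higher. The ratios were under 2-fold, at 1.65 and 1.40-fold higher in combined than in untreated cells and 1.32 and 1.19-fold higher in FGF2 than in untreated cells. For 1449187_at, 1.71% of measured probe sets had a combined ratio as high or higher.

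Pdgfd, which encodes the D chain, a ligand of the β receptor, was lowest in combined cells. Its probe set 1456532_at had a signal of 374 in IL-17A, 319 in FGF2, 221 in combined and 414 in untreated cells, a 1.87-fold lower signal in combined than in untreated cells. For 1426319_at the signals were 195 in IL-17A, 161 in FGF2, 116 in combined and 188 in untreated cells, a 1.61-fold lower signal in combined than in untreated cells. Both probe sets had the FGF2 array below the untreated array, by log2 ratios of -0.38 and -0.23, and they differed in the sign of the IL-17A ratio, -0.14 and 0.05. A further Pdgfd probe set, 1446691_at, was under the floor on all 4 arrays, with signals of 24.7 in IL-17A, 35.5 in FGF2, 27.1 in combined and 2.45 in untreated cells, and no fold is given for it.

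The probe sets of Pdgfc, the gene of the C chain, disagreed. Probe set 1419123_a_at had a signal of 1711 in IL-17A, 1314 in FGF2, 1157 in combined and 1560 in untreated cells, with log2 ratios of -0.25 for FGF2 and -0.43 for combined against untreated cells. On 1449351_s_at the signals were 1272 in IL-17A, 1376 in FGF2, 1345 in combined and 1379 in untreated cells, with a log2 ratio of -0.04 for combined against untreated cells, which turned to 0.12 with the arrays at a common median. The first was lowest in combined cells and the second in IL-17A cells, so no single order can be given for this gene.

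Pdgfb encodes the B chain, which binds both receptors. Probe set 1450414_at had a signal of 652 in IL-17A, 824 in FGF2, 756 in combined and 757 in untreated cells. Probe set 1450413_at, nearer the floor, had 140 in IL-17A, 142 in FGF2, 120.3 in combined and 146 in untreated cells. The largest log2 ratio against untreated cells was -0.21 for the first probe set (IL-17A) and -0.28 for the second (combined), and they did not share an order of the arrays.

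Counted at 2-fold or more over the 13 measured probe sets, the family gave few differences. In IL-17A against untreated cells 0 were higher and 0 lower, where 0.332% and 0.203% of all measured probe sets were. In FGF2 against untreated cells 0 were higher and 1 was lower, Pdgfra 1421917_at, where 0.471% and 0.84% of all measured probe sets were. In combined against untreated cells 0 were higher and 2 were lower, both of Pdgfra, where 0.664% and 1.45% were. Adding FGF2 to IL-17A left 0 higher and 1 lower, or 0 lower with a common median (0.457% and 0.913% over all measured probe sets), and adding IL-17A to FGF2 left 0 higher and 0 lower (0.286% and 0.323%). All probe sets past 2-fold were thus those of 1 gene, and probe sets of 1 gene share their RNA and are not replicates. The median log2 ratio over the 13 was -0.11 for IL-17A, -0.04 for FGF2 and -0.28 for combined against untreated cells, beside -0.0073 over all measured probe sets in the combined comparison and 0.0 in the other comparisons.

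The design lets each factor be read from a pair of array pairs that share no array. FGF2 was read as FGF2 against untreated and as combined against IL-17A, and 12 of 13 probe sets had the same sign in both readings, 5 of them higher and 7 lower, where 59.3% of all measured probe sets had the same sign. The exception was Pdgfc 1449351_s_at, with ratios close to 0, and Pdgfb 1450413_at, counted among the 7, had an FGF2 ratio of -0.04 that turned to 0.05 with a common median and 0.02 with quantile normalization. IL-17A was read as IL-17A against untreated and as combined against FGF2, and 9 of 13 had the same sign, where 50.5% of all measured probe sets did. Of those 9, 2 were higher, both of Pdgfa, and 7 were lower, among them Pdgfc 1449351_s_at, whose ratio of -0.03 for combined against FGF2 turned to 0.03 with a common median. For Pdgfra 1421917_at the FGF2 readings were -1.09 and -1.07 and the IL-17A readings -0.26 and -0.24. In the shares over all measured probe sets, a ratio of 0 between signals under the floor counts as no shared sign. All 13 member probe sets were over the floor on all 4 arrays, so those shares are not of like probe sets.

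The difference between the readings of a factor is the departure from additivity, the log2 combined signal minus the IL-17A and FGF2 signals plus the untreated signal. It was 0.02 for Pdgfra 1421917_at, so on this probe set the combined ratio was close to the sum of the single ones. It was -0.29 for Pdgfra 1421916_at and -0.69 for 1438946_at, and among measured probe sets of like mean signal (log2 8 to 10) the 1st to 99th percentile ran from -0.90 to 0.75. For Pdgfd it was -0.38 and -0.52, and for Pdgfa 0.21 and 0.14. All 13 lay within the 1st to 99th percentile of probe sets of their signal class. Nearly all probe sets lie in that range by its definition, so this does not show additivity.

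**Figure D2:**
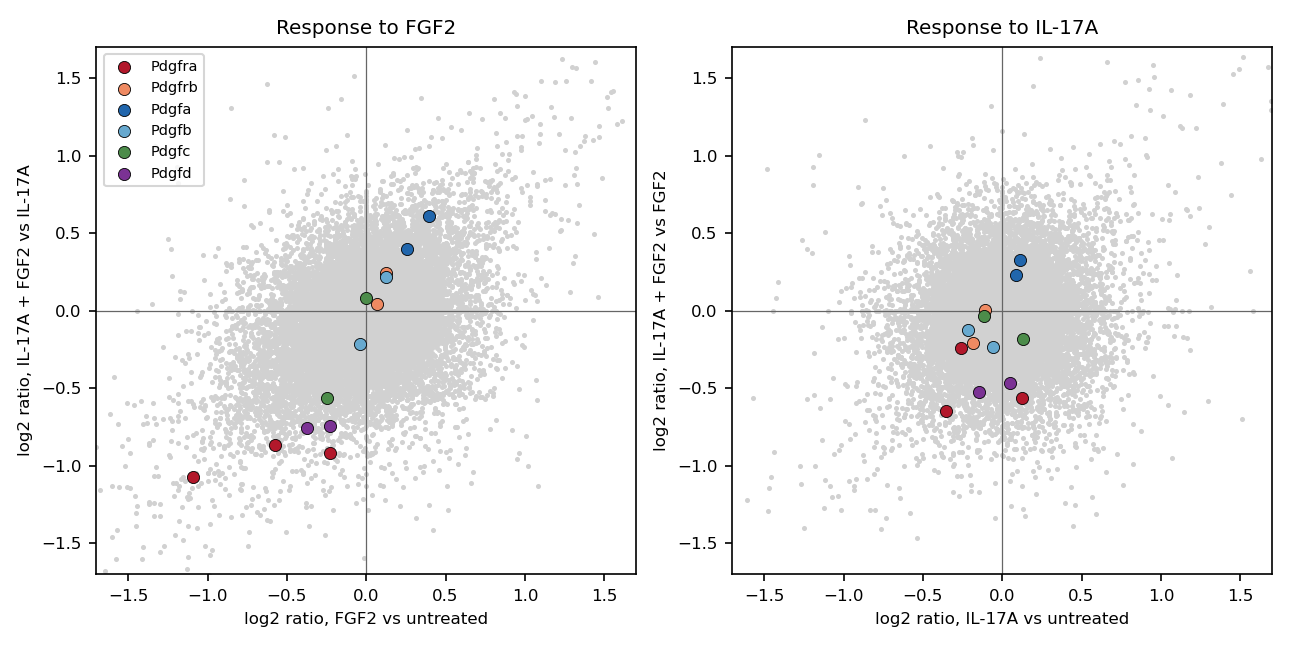
Left, the log2 ratio of FGF2 against untreated (horizontal) and of combined against IL-17A (vertical); right, that of IL-17A against untreated and of combined against FGF2. Coloured points are the 13 measured PDGF probe sets and grey points all measured probe sets, with some grey points outside the axes; Pdgfra 1421917_at lies near -1.09 and -1.07 on the left.

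Because Pdgfra and Pdgfd were lowest and Pdgfa highest in the combined cells, the bases around their annotated starts are shown. The windows run from 250 bases before to 50 bases after a start and were taken from RefSeq on GRCm38.p6, in the direction of transcription. Of the 6 genes, windows of Pdgfra, Pdgfa, Pdgfc and Pdgfd were used, 5 in all. The windows of Pdgfra and Pdgfa lie wholly inside the gene spans given above, so they are not at the outermost start of either gene. The motifs searched on both strands were AP-1 (TGANTCA), SP1 (GGGCGG), EGR1 (GCGNGGGCG), the TATA box (TATAAA), and by name NF-kB and the CArG box, and capitals mark the matches.
Pdgfra, chr5:75152001-75152300, plus strand: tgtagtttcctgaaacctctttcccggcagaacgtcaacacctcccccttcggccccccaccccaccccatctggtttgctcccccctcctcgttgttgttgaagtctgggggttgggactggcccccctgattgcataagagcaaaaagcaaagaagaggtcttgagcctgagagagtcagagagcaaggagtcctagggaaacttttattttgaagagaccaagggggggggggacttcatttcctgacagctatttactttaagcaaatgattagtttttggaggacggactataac
Pdgfd, chr9:6168236-6168535, plus strand: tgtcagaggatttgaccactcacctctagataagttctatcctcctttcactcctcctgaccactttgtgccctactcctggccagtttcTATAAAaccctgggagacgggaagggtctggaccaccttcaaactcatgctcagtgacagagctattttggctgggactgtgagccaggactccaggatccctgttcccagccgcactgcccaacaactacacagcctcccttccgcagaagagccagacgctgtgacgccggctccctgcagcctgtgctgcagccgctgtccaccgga
Pdgfa, chr5:138994895-138995194, minus strand: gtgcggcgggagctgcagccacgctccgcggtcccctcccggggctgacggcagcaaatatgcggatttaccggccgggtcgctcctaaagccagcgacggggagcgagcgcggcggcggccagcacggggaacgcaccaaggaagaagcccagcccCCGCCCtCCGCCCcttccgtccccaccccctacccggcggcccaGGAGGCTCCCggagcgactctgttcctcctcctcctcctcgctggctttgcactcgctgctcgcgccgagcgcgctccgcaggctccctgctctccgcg

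The Pdgfra window held 0 matches of the 6 motifs. The Pdgfd window held 1 TATA box match at bases -160 to -155 from the start, and 13.6% of the 32851 RefSeq windows hold one. The Pdgfa window held an NF-kB match at -49 to -40, where 8.46% of windows hold one, and 2 SP1 matches at -93 to -88 and -86 to -81, where 35.7% do. The other Pdgfa window, chr5:138994232-138994531, held 1 SP1 match and no NF-kB match. The Pdgfc window held an NF-kB match at -150 to -141 and a CArG box match at -17 to -8, where 1.63% of windows hold a CArG box. AP-1 and EGR1 had 0 matches in these windows, where 7.81% and 5.55% of all windows hold them. The GC content was 51.0% in the Pdgfra window, 56.7% in that of Pdgfd and 73.3% in that of Pdgfa, beside a median of 52.7%. These are letters in a window and not sites of binding.

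The proteases that process the ligands came next in the pathway. Plau encodes urokinase, which can release active PDGF-DD, and Plat encodes tissue plasminogen activator, which can release active PDGF-CC. Plau had a signal of 215 in IL-17A, 306 in FGF2, 229 in combined and 111 in untreated cells, 2.75-fold higher in FGF2 and 2.06-fold higher in combined than in untreated cells, and its other measured probe set shared the sign of both ratios but not that of the IL-17A ratio. Plat had 15050 in IL-17A, 9270 in FGF2, 14016 in combined and 10163 in untreated cells, so it was 1.48-fold higher with IL-17A alone, a sign its other measured probe set shared. Furin, which cleaves the A and B chains inside the cell, was 1.37-fold higher in combined than in untreated cells. Of the 5 measured proteases, 1 was at least 2-fold higher in FGF2 and 1 in combined cells against untreated cells, and 0 were at least 2-fold lower in either. With 1 probe set taken for each gene, the shares past 2-fold among the 12258 measured genes were 0.473% upward and 0.963% downward in FGF2 cells, and 0.906% and 1.73% in combined cells.

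Signal transducers beneath the receptors differed little. Of 17 adaptors and enzymes, 0 were 2-fold different in IL-17A, FGF2 or combined cells against untreated cells, and the median log2 ratio was 0.02 both for FGF2 and for combined. Crk, an adaptor, was 1.10-fold higher and Ptpn11, the phosphatase SHP2, 1.12-fold higher in combined than in untreated cells. Of 14 regulators and inhibitors, 12 were measured, not Pdgfrl or Socs1, and 0 were 2-fold different. Sparc, a matrix protein that binds PDGF-B, and Ptpn12, a phosphatase, were 1.02-fold and 1.08-fold higher in combined than in untreated cells.

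The receptor tyrosine kinases nearest in structure were read next. Of 6 receptors of the PDGF and VEGF receptor classes, 5 were measured, and all 5 were above 0 in FGF2 and in combined cells against untreated cells, with a median log2 ratio of 0.61 and 0.68. Flt1, a VEGF receptor of endothelium, had a signal of 461 in IL-17A, 709 in FGF2, 858 in combined and 401 in untreated cells and was the 1 that passed 2-fold, at 2.14-fold higher in combined cells. Kit, the stem cell factor receptor, was 1.60-fold higher in combined than in untreated cells on a probe set whose sign its other measured probe set did not share. Csf1r, the macrophage growth factor receptor, was 1.05-fold higher in combined and 1.01-fold higher in FGF2 cells, so it lay close to 0. Of its 2 other measured probe sets, 1 shared the sign in FGF2 cells. The endothelial marker list, which shares Kdr with the receptor list, was higher as well, each gene read by its brightest probe set. Against untreated cells, 10 of 10 genes were above 0 in FGF2 cells and 9 of 10 in combined cells. The other measured probe set of Cdh5 did not share its sign in FGF2 cells. Summed signals of the list were 9231 in IL-17A, 13100.2 in FGF2, 14281 in combined and 10092 in untreated cells. The part of this list in the receptor values was not tested. Of 5 VEGF-family ligands 0 were 2-fold different against untreated cells, and Vegfa, the main endothelial mitogen, was 1.68-fold higher and Pgf, placental growth factor, 1.06-fold higher in combined cells.

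Genes known to respond early to PDGF in fibroblasts are also targets of many other stimuli. Of these genes 19 were measured. The treatments lasted 6 h and no earlier time was sampled, so an earlier response could not be seen. At least 2-fold higher were 1 in IL-17A, 1 in FGF2 and 3 in combined cells against untreated cells, and 0 were at least 2-fold lower in any of them. In IL-17A against untreated cells, the shares of all measured genes past 2-fold were 0.375% upward and 0.228% downward. Ccl2, a monocyte chemokine, had a signal of 1216 in IL-17A, 597 in FGF2, 1786 in combined and 629 in untreated cells. Ccl7, a related chemokine, had 497 in IL-17A, 216 in FGF2, 543 in combined and 189 in untreated cells. Both were high on the arrays with IL-17A. Egr3, a zinc finger transcription factor, had 186 in IL-17A, 330.2 in FGF2, 334 in combined and 148 in untreated cells and was high on the arrays with FGF2.

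**Figure D3:**
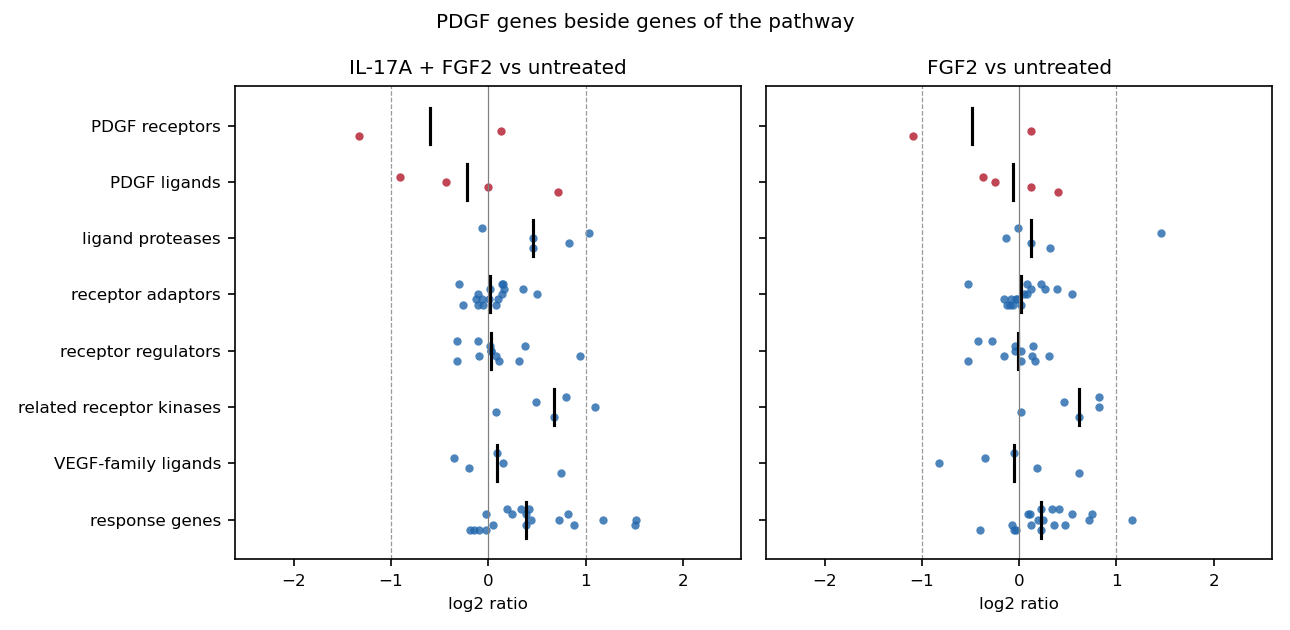
Log2 ratios of the pathway lists for combined against untreated cells (left) and FGF2 against untreated cells (right), 1 point per measured gene by its brightest probe set, with a black bar at the list median and dashed lines at 2-fold. The adaptors and regulators cluster around 0, and the 5 related receptors lie above 0 in both panels, Csf1r only just.

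Markers of the cells that carry PDGF receptors did not share 1 direction. Against untreated cells, the fibroblast list had a median log2 ratio of -0.31 in FGF2 and -0.40 in combined cells, with 9 of 12 and 8 of 12 genes below 0. Its summed signal was 68922 in IL-17A, 57796 in FGF2, 60797 in combined and 64710 in untreated cells. Col1a1 and Dpt were at least 2-fold lower in FGF2 and combined cells, whereas Pdpn was at least 2-fold higher in both. Dcn, a fibroblast proteoglycan, was 1.20-fold higher in FGF2 and 1.46-fold higher in combined cells. No gene of the list had an exact 0 on any array. The ratio of Pdgfra 1421917_at in combined against untreated cells was lower than that of 11 of the 12 fibroblast markers, all but Dpt. The part of these markers in the Pdgfra values was not tested.

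Smooth muscle markers, each read by its brightest probe set, were lower in cells given FGF2. All 7 were below 0 in FGF2 and combined cells, with median log2 ratios of -0.77 and -1.01, and 2 and 4 of them were at least 2-fold lower. Lmod1, counted in both, had 90.0 in FGF2, close to the floor, and 63.0 in combined cells, under it. Myocd was under the floor in both, at 77.4 in FGF2 and 71.0 in combined cells. Ratios with a signal under the floor were set by the floor. The summed signal was 34450 in IL-17A, 24516 in FGF2, 22647 in combined and 33729 in untreated cells. Myh11, the smooth muscle myosin, had 1377 in IL-17A, 817 in FGF2, 531 in combined and 1615 in untreated cells, but its other measured probe set did not share the sign of any ratio against untreated cells. Cnn1, calponin, with no other measured probe set, was 3.22-fold lower in combined than in untreated cells. Pdgfra 1421917_at had a higher combined ratio than 2 of the 7. Whether the Pdgfra or Pdgfd values rest on smooth muscle RNA was not tested.

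Pericyte markers, which go with the β receptor, had medians of 0.08 in FGF2 and 0.01 in combined against untreated cells, with summed signals of 10364 in IL-17A, 10107 in FGF2, 9761 in combined and 10359 in untreated cells. Rgs5 was 1.78-fold lower, and Abcc9 and Kcnj8 were 1.30-fold and 1.27-fold higher, in combined than in untreated cells. For the subepithelial fibroblast list, 6 of 8 genes measured, the medians were -0.05 and -0.01, and among its genes F3 was 1.08-fold higher, Bmp7 1.19-fold higher and Bmp5 1.41-fold lower in combined than in untreated cells. Both medians of that list turned above 0 with a common median. Epithelial markers had medians of 0.10 and 0.07, which turned to -0.01 and -0.14 with quantile normalization, with 0 of 10 at 2-fold in either.

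**Figure D4:**
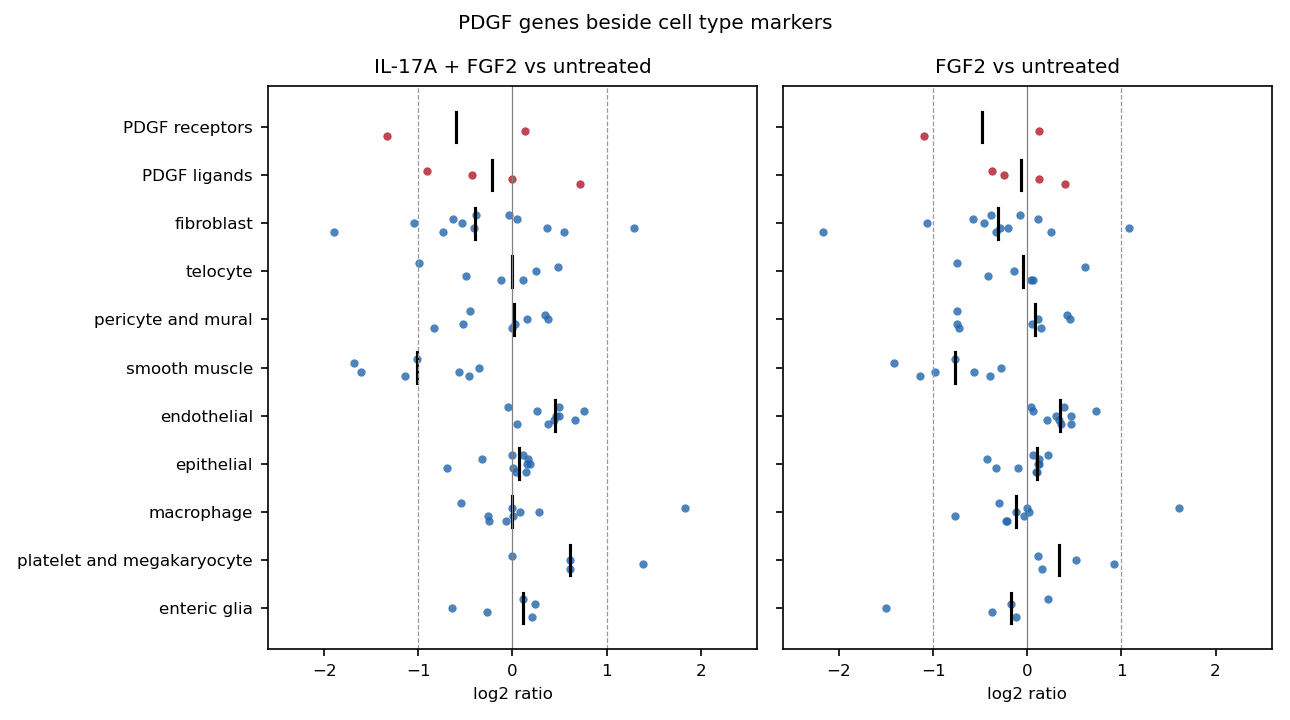
Log2 ratios of the cell type marker lists for combined against untreated cells (left) and FGF2 against untreated cells (right), 1 point per measured gene by its brightest probe set, with a black bar at the list median and dashed lines at 2-fold. Smooth muscle markers all lie below 0, endothelial markers mostly above it, and fibroblast markers on both sides.

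The remaining lists concern cells that make or carry PDGF chains. Platelets store PDGF, and the 4 platelet genes measured had a median log2 ratio of 0.34 in FGF2 and 0.61 in combined cells against untreated cells. Ppbp, a platelet chemokine, was 2.61-fold higher in combined cells. Of the 9 macrophage genes, 2 were above 0 and 6 below in FGF2 against untreated cells, with a median log2 ratio of -0.12. In combined against untreated cells 4 were above 0 and 4 below. Cd14, a lipopolysaccharide co-receptor, was 3.06-fold higher in FGF2 and 3.57-fold higher in combined cells. Adgre1 was 1.17-fold lower in FGF2 and 1.19-fold lower in combined cells, and Cd68 and Csf1r were within 1.06-fold in combined cells. Of the 5 enteric glia genes measured, 1 was above 0 and 4 were below in FGF2 against untreated cells, with a median log2 ratio of -0.18. In combined against untreated cells 3 were above 0 and 2 below, with a median of 0.12. Gfap was 2.83-fold lower in FGF2 and 1.56-fold lower in combined than in untreated cells. Sox10 was 1.09-fold lower in FGF2 and 1.16-fold higher in combined cells. The part of these cells in the PDGF ligand values was not tested.

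The genes whose ratios were most like each member were found among 10637 genes by the Euclidean distance over the 3 log2 ratios against untreated cells, which share the untreated array. Nearest to Pdgfra were Gask1b (distance 0.063), Col6a2 (0.113), Mylk (0.162), Col6a1 (0.164) and Clec2h (0.164). Col6a2 and Col6a1 encode collagen VI chains and Mylk the myosin light chain kinase. Their combined log2 ratios were -1.28, -1.26 and -1.32. Col6a3, another collagen VI gene, from the fibroblast list, had -0.41 in that comparison and was not among these neighbours. Nearest to Pdgfa were Mast4, Pde4b, Ncs1, Reln and Mex3a, at distances of 0.0255 to 0.0844. Nearest to Pdgfd were Arhgef10, Aamdc, Apoe, Ttc14 and Zbtb16, at 0.0767 to 0.115. The members with small ratios had many close neighbours, led by Oga for Pdgfrb (0.021), Cdk2 for Pdgfb (0.0092) and Plbd2 for Pdgfc (0.0264).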

How the data were processed

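Total RNA of 4 cultures was labelled by a 3′-primed kit and hybridised to 1 Affymetrix array per group, per the labels' protocols. Values were deposited as log2 signals, 1 for each probe set and array, which the authors had summarised with MAS5 per the submitters' processing notes, whose version is not given in the sources used here. The deposited signals had a 2% trimmed mean of 500 on each array, so they had been scaled, and near background MAS5 values are noisy. The number of arrays limits the precision. Symbols came from the platform annotation: of 45101 probe sets, 34945 had 1 symbol, 932 several and 9160 none, and 64 controls were left out. In all, 34741 probe sets matched the GRCm38.p6 gene table by Entrez identifier.

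Log2 ratios were taken after raising signals to the floor, the median signal, and 2-fold was the threshold (Python 3.11.15, pandas 2.3.3, numpy 2.4.6). Genes in lists were read by their brightest probe set. No test was made, since each group is 1 array. The scripts were tested on simulated data. The named genes were all members, list genes at 2-fold in any of the 5 comparisons or else the 2 brightest of a process list, the first 4 of a marker list, and the 5 nearest genes. Plat, Furin, Kit, Dpt, Pdpn, Vegfc, Lmod1, Myocd and Col6a3 were named after their values were seen. The members and lists were chosen with earlier results of these data known. The alternatives were a common median, quantile normalization, other floors, the median added to each signal, thresholds of 1.5 and 3-fold, the brightest probe set per gene, and leaving out probe sets that may match several transcripts.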

Additional observations from a re-analysis of the deposited data

Results flagged for a closer look

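The readings of a factor in the absence and in the presence of the other use separate arrays, and 5 member values had opposite signs in these readings. The differences were not tested, since each reading is 1 array against 1 array. FGF2 on Pdgfc 1449351_s_at had a log2 ratio of 0.0806 when added to IL-17A and -0.0032 against untreated cells. IL-17A on Pdgfra 1438946_at had -0.5648 when added to FGF2 and 0.1241 against untreated cells. IL-17A on Pdgfd 1426319_at had -0.4654 when added to FGF2 and 0.0521 against untreated cells. IL-17A on Pdgfc 1419123_a_at had -0.1828 when added to FGF2 and 0.1338 against untreated cells. IL-17A on Pdgfrb 1436970_a_at had 0.0065 when added to FGF2 and -0.1112 against untreated cells. The Pdgfra and Pdgfd values are the wider ones, and the other measured probe sets of both genes were lower in both IL-17A readings.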

How the results depend on the processing

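Under the 5 alternatives of scaling and floor, 305 member log2 ratios were recomputed. Of these, 293 moved by less than a yardstick, 12 moved by more and 9 changed sign. The yardstick is the SD that a log2 ratio would have in its signal class if all departure from additivity were error. The 25th percentile floor could move no member ratio, because every measured member probe set was over the higher main floor on every array. Members over the 75th percentile floor on every array were fixed there too, so part of the 293 was set in advance. The count of 1 probe set lower in FGF2 than in untreated cells became 0 at 3-fold. The count of 2 lower in combined than in untreated cells became 1 with the floor at the 75th percentile, 1 with the median added to every signal, 1 with the brightest probe set per gene, 5 at 1.5-fold and 0 at 3-fold, and the count higher became 1 at 1.5-fold. Adding FGF2 to IL-17A gave 1 higher and 5 lower at 1.5-fold, 0 lower at 3-fold and 0 lower with the arrays at a common median, where Pdgfra 1421917_at had -0.95 in place of -1.07. Adding IL-17A to FGF2 gave 1 lower at 1.5-fold. A common median moved the median of all measured probe sets to 0.12 for combined against untreated cells, where Pdgfra 1421917_at had -1.18 and Pdgfa 1449187_at 0.88, and the combined ratios of Pdgfrb 1417148_at, Pdgfb 1450414_at and Pdgfc 1449351_s_at changed sign. The cause of these changes was not tested. The call of Pdgfra 1421916_at in combined cells ended at the 75th percentile floor, which lies above most of its signals, with a log2 ratio of -0.21. It also ended with the median added, at -0.97. At the 75th percentile floor only 9 of the 13 member probe sets were still measured. Pdgfra 1438946_at, Pdgfb 1450413_at and all probe sets of Pdgfd dropped out, so their ratios could not be checked at that floor. No paired analysis was possible because each group is 1 array and the labels carry no shared replicate numbers. With 1 array a group, neither culture nor array variation is known.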

Other observations

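Pdgfrl, a gene related in sequence to the PDGF receptors, had signals of 36.9 in IL-17A, 49.7 in FGF2, 81.5 in combined and 34.4 in untreated cells, all under the floor, so no fold is given. Vegfc, a lymphatic growth factor of the related VEGF family, had signals of 1569 in IL-17A, 685 in FGF2, 1352 in combined and 1214 in untreated cells. It was 1.98-fold higher in combined than in FGF2 cells and 1.77-fold lower in FGF2 than in untreated cells.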
